A study of Homo sapiens with 12 samples.

Results

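The IL-20 subfamily genes described here are the ligands IL19, IL20 and IL24 and the receptor subunits IL20RA, IL20RB, IL22RA1 and IL10RB. They were listed by gene symbol, a rule that uses no measured value, though earlier results of these data were known. All 7 were found among the 22545 symbols of the count table. RNA was sequenced from 12 libraries of HaCaT, an established line of immortalised human keratinocytes, in 4 groups of 3. The groups, abbreviated as in the labels, were untreated cells (WT), cells given M5 (M5), cells given M5 with lefamulin (ML) and cells given M5 with retapamulin (MR), and the labels give the genotype of all of them as WT. The labels name no solvent, dose or time, so the controls of the compounds are cells with M5 alone, and it is not known whether the doses of the compounds match. The extraction text speaks of mouse epidermis, although every label names HaCaT as the source. HaCaT is 1 cell line grown without the leukocytes of skin, and nothing in the labels ties the 3 libraries of a group to separate cultures, so p-values measure the spread between libraries, which may be technical.

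IL-19, IL-20 and IL-24 are secreted helical cytokines of the IL-10 family. All of them bind the receptor made of IL-20RA and IL-20RB, and IL-20 and IL-24 also bind a receptor made of IL-22RA1 and IL-20RB. IL-22RA1 pairs with IL-10RB to bind IL-22, and IL-10RB is also a chain of the receptors for IL-10, IL-26 and the type III interferons. The receptors act through Janus kinases and STAT3. In epidermis, these ligands are known to be made by activated keratinocytes and myeloid cells, to be raised in psoriatic plaques, and to drive keratinocyte proliferation and antimicrobial peptides while holding back cornification. M5 usually means a cocktail of IL-17A, IL-22, oncostatin M, IL-1α and TNF-α that brings out psoriasis-like expression in keratinocytes; the labels do not say what it held in these cultures. Both compounds belong to the pleuromutilin class of antibiotics and have a common tricyclic core with different side chains.

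IL19, IL20 and IL24 are next to each other on chromosome 1, on the forward strand, with no other protein-coding gene between them in RefSeq, and IL19 overlaps IL10. Because the 3 neighbours part company in the results, the 250 bases before a start site of each are printed here from RefSeq (GRCh38.p14, forward strand, 5′ to 3′). All 7 genes were matched by symbol. IL19 and IL20 have 2 windows each in that table, and the one nearest to the start of a coding transcript in GENCODE was taken. The start sites of the windows shown lie 641 bases (IL19), 186 bases (IL20) and 0 bases (IL24) from such a start. Capitals mark matches to any of 5 motifs searched on both strands: AP-1 (TGANTCA), STAT (TTCNNNGAA), C/EBP (TTNNGNAA), the TATA box (TATANA) and the NF-kB consensus.
IL19, chr1:206834099-206834348: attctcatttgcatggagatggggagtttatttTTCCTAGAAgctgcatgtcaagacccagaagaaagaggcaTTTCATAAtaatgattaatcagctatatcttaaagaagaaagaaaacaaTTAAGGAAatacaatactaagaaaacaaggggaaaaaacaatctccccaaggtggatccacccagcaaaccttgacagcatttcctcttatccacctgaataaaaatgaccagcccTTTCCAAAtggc
IL20, chr1:206865373-206865622: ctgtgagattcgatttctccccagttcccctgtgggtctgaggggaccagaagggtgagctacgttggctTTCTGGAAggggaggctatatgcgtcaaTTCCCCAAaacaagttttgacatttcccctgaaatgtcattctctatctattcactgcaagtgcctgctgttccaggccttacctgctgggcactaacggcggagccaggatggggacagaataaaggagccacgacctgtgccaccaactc
IL24, chr1:206897193-206897442: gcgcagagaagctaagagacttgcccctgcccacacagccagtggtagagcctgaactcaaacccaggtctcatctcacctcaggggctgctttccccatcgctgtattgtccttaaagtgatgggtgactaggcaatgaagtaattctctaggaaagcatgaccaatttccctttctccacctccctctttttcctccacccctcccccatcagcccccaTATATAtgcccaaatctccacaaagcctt

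IL19's window holds 1 STAT match, TTCCTAGAA at position -217 from the start, and 3 C/EBP matches. The IL20 window holds 2 C/EBP matches, and the IL24 window holds a TATATA run at position -29 and no match to the other 4 motifs. Of 35114 promoter windows of the same length, 6.57% hold the STAT motif, 33.2% the C/EBP motif, 17.7% the TATA motif, 6.57% the AP-1 motif and 5.21% the NF-kB consensus. The windows not shown differ: that of IL19 holds an AP-1 match, TGACTCA at position -107, and that of IL20 holds 4 TATA matches and 1 C/EBP match. Which start the cells used was not measured. A match describes letters only, and its absence from 250 bases says nothing of the factor.

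Column totals of the count table ran from 35110519 to 37520999, over 17009 to 17955 detected genes. Keratinocyte markers (KRT5, KRT14, TP63, CDH1, DSP and DSG3) summed to 1991 to 2923 CPM (counts scaled to a common library total, with edgeR's TMM factors). They did not move together. KRT5 was at 1632 CPM in untreated cells, 637 with M5, 454 with lefamulin and 437 with retapamulin. CDH1 was at 328, 338, 650 and 661 CPM in the same order. The 3 leukocyte markers in the table (PTPRC, CD3E and LYZ) summed to at most 0.0847 CPM, and PTPRC was at 0 in all M5 libraries. Of 5 fibroblast markers, COL1A2, COL3A1, DCN and LUM had at most 3 counts over any group, and the sum of 5.22 to 16.9 CPM came from COL1A1. Endothelial markers summed to 14.6 to 16.7 CPM in untreated libraries and to 99.8 to 123 CPM in the others, mostly CDH5, while PECAM1 had at most 2 counts over a group; the part of this in the results below was not tested. Melanocyte markers summed to at most 2.44 CPM, with MLANA at no more than 2 counts over a group. In bulk RNA, fewer cells that express a gene and less of its RNA per cell cannot be told apart.

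All 7 genes passed the filter on low counts and were tested with edgeR among 14207 genes, with a Benjamini-Hochberg adjusted p under 0.05 called. M5 against untreated cells called 3 of the 7 higher (28.3% of all genes tested) and 3 lower (26.9%), together 85.7% beside 55.2%. Lefamulin with M5 against M5 called 1 higher (33.6%) and 5 lower (34.3%), together 85.7% beside 67.9%. Retapamulin with M5 against M5 called 1 higher (34.1%) and 4 lower (38.0%), together 71.4% beside 72.1%. Lefamulin against retapamulin called 3 higher (18.8%) and 1 lower (21.2%), together 57.1% beside 40.0%. M5 with lefamulin against untreated called 3 higher (36.9%) and 3 lower (37.1%), or 85.7% beside 74.0%, and M5 with retapamulin against untreated called 3 higher (37.6%) and 3 lower (40.9%), or 85.7% beside 78.5%. Libraries did not overlap between groups for 7, 6, 5, 3, 6 and 5 of the 7 genes in these comparisons, taken in the same order, beside 59.2%, 71.2%, 73.8%, 52.0%, 76.1% and 79.2% of all genes. With so much of the transcriptome moving, these counts single out nothing, and the size and direction of each gene carry the results. The median log2 fold change of the 7 was 0.50 in M5 against untreated, -1.61 with lefamulin and -2.35 with retapamulin against M5, beside -0.02, -0.00 and -0.05 over all genes.

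M5 raised the RNA of all 3 ligands from nothing or next to nothing. IL19 had 0 counts in every untreated library and 1600, 1646 and 1717 in the M5 libraries, which is 44.7 ± 1.70 CPM (SD, n = 3 libraries in every group). IL20 likewise had 0 counts in every untreated library and 372, 418 and 387 with M5, or 10.6 ± 0.797 CPM. IL24 had 1, 0 and 0 counts in untreated libraries and 505, 505 and 517 with M5, or 13.7 ± 0.215 CPM. No M5 library came near an untreated one. Against a floor of 3 counts over the untreated group (0.0255 CPM), the rise was at least 1753-fold for IL19 and at least 416-fold for IL20, and the ratio for IL24, against 1 count, was 1618 (95% counting interval 290 to 63934). The bounds allow for counting error in untreated cells only, taking the M5 counts as exact, and the interval covers counting error alone. By edgeR the adjusted p was 5.8e-20, 5.1e-16 and 1.4e-20 for IL19, IL20 and IL24.

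Both compounds brought IL19 and IL20 down to a small remainder of their M5 level, in comparisons that share the 3 M5 libraries. IL19 had 15, 16 and 6 counts with lefamulin and 0, 6 and 3 with retapamulin. That is 0.346 ± 0.153 and 0.0881 ± 0.0885 CPM, with log2 fold changes against M5 of -7.00 (SE 0.18, edgeR adjusted p = 2.7e-19) and -8.92 (SE 0.22, adjusted p = 9.4e-20). Without MR replicate 2 the IL19 value with retapamulin was -9.87. Every M5 library was at or above 42.8 CPM and every library with a compound at or under 0.452 CPM. IL20 had 10, 6 and 13 counts with lefamulin and 13, 10 and 14 with retapamulin. Its log2 fold changes against M5 were -5.27 (SE 0.24, adjusted p = 9.1e-15) and -4.85 (SE 0.23, adjusted p = 1.5e-14). The groups were again far apart, at 9.94 to 11.5 CPM with M5 and 0.169 to 0.408 CPM with either compound.

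IL24 did not follow its neighbours. It had 200, 172 and 210 counts with lefamulin and 802, 862 and 954 with retapamulin, against 505 to 517 with M5 alone. Lefamulin lowered it from 13.7 ± 0.215 to 5.46 ± 0.566 CPM, or 2.52-fold, with a log2 fold change of -1.33 (SE 0.10; adjusted p = 2.0e-11 by edgeR). Retapamulin raised it to 25.8 ± 1.84 CPM, 1.88-fold above M5 (0.91, SE 0.09, adjusted p = 2.2e-09). The 3 groups did not overlap, with lefamulin lowest at 4.86 to 5.98 CPM, M5 at 13.5 to 13.9 and retapamulin highest at 24.2 to 27.8. With lefamulin the 95% interval of the IL24 change, -1.54 to -1.12, lay apart from that of IL19, -7.37 to -6.62, and of IL20, -5.77 to -4.76. With retapamulin IL24 and its neighbours moved in opposite directions.

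**Figure D1:**
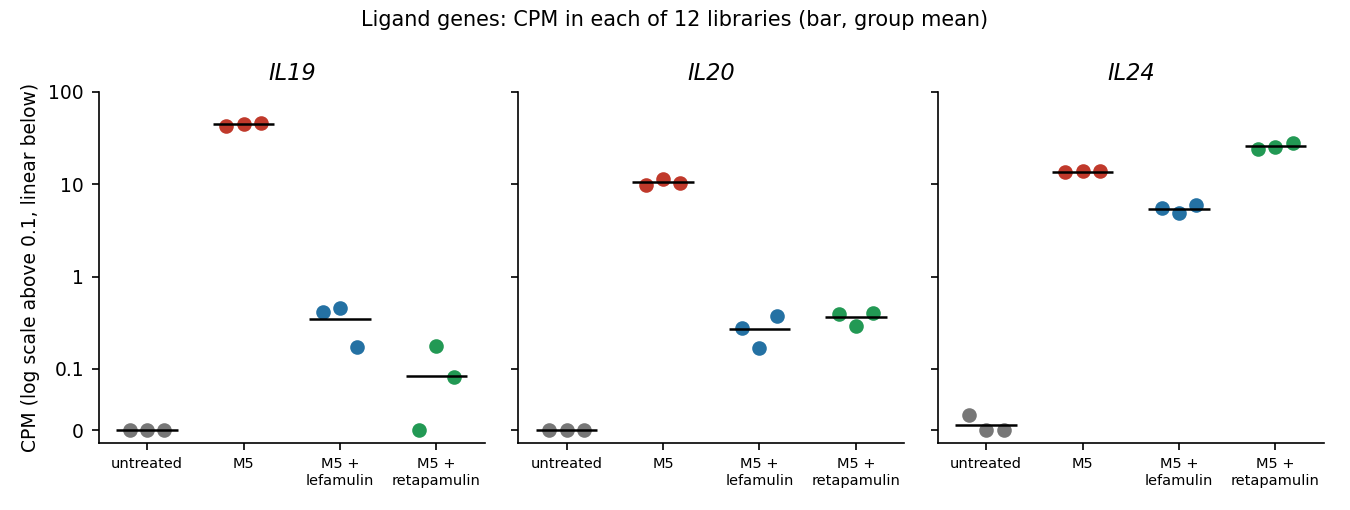
CPM of IL19, IL20 and IL24 in each of the 12 libraries, on an axis that is logarithmic above 0.1 CPM and linear below; each point is a library and each bar a group mean. IL19 and IL20 are high only in the M5 libraries among the 4 groups, whereas IL24 is high in M5, lower with lefamulin and highest with retapamulin.

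On FPKM, which divides by gene length so that levels of different genes can be set side by side, the mix of ligand RNA changed with the compounds. That length is fixed for each gene. Which transcripts the cells made was not measured, so shares and the order of genes depend on it. The 3 ligands summed to 28.6 ± 1.17 FPKM with M5, 2.93 ± 0.293 with lefamulin and 12.01 ± 0.771 with retapamulin. With M5, IL19 made up 50.6 ± 0.885% of that sum, IL20 25.3 ± 1.17% and IL24 24.1 ± 0.540%. With lefamulin IL24 made up 89.6%, 90.3% and 90.7% in the 3 libraries, and with retapamulin 97.8%, 98.0% and 97.8%. IL19 fell to 3.81 ± 1.93% and 0.213 ± 0.221% of the sum. Each pair of these groups was fully separated in the IL24 share and in the sum, and the two-sided exact permutation p was 0.1 in each case, the smallest that 3 against 3 libraries can give.

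**Figure D2:**
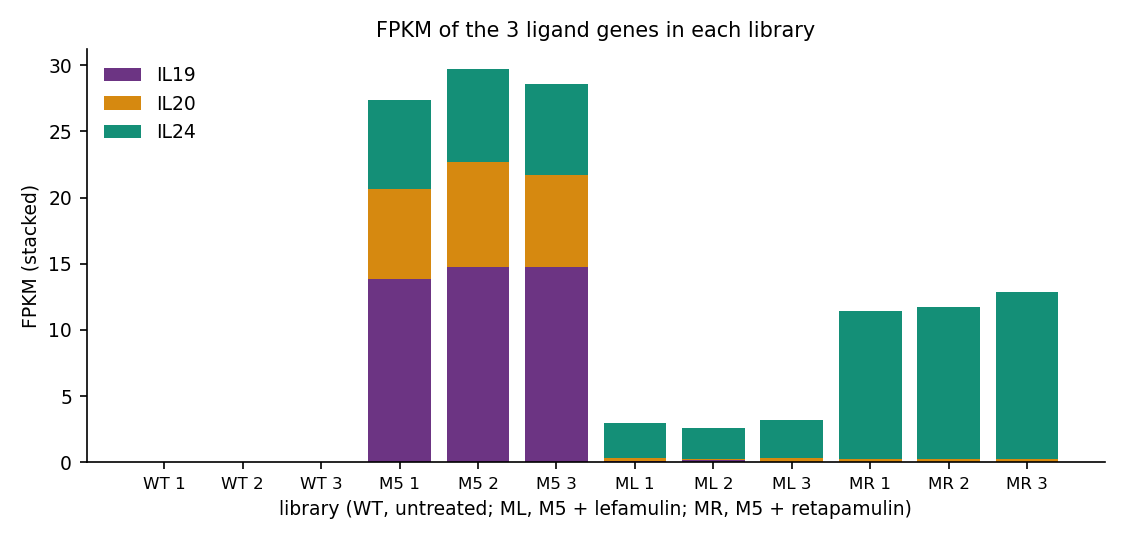
Stacked FPKM of IL19, IL20 and IL24 (vertical axis) in each library (horizontal axis). M5 libraries hold all 3 ligands with IL19 the largest part, while bars with lefamulin or retapamulin are almost all IL24 and are 2.61 to 3.19 and 11.4 to 12.9 FPKM tall.

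Among the receptor chains, both alpha chains fell with M5 and fell further with each compound. IL20RA, the alpha chain of the receptor for all 3 ligands, had 105, 98 and 83 counts in untreated libraries and 45, 48 and 46 with M5. It had 19, 12 and 7 counts with lefamulin and 3, 6 and 5 with retapamulin. In CPM these are 2.43 ± 0.319, 1.25 ± 0.0603, 0.355 ± 0.164 and 0.138 ± 0.0439, and no library of a group reached the next group. M5 lowered IL20RA by a log2 fold change of -0.96 (SE 0.27, edgeR adjusted p = 0.0041), lefamulin lowered it further by -1.81 (SE 0.33, adjusted p = 3.1e-05) and retapamulin by -3.15 (SE 0.39, adjusted p = 9.1e-08).

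IL22RA1, which binds IL-22 with IL-10RB and IL-20 or IL-24 with IL-20RB, had 59, 66 and 77 counts in untreated libraries and 19, 22 and 33 with M5. It had 8, 9 and 6 counts with lefamulin and 0, 5 and 8 with retapamulin. The means were 1.71 ± 0.208, 0.666 ± 0.196, 0.215 ± 0.0419 and 0.127 ± 0.118 CPM; untreated, M5 and compound libraries did not overlap, but the compounds overlapped each other. The change with M5 was -1.36 (SE 0.36, edgeR adjusted p = 0.0027), with lefamulin against M5 -1.61 (SE 0.46, adjusted p = 0.0036) and with retapamulin against M5 -2.35 (SE 0.51, adjusted p = 2.5e-04). At these few counts the 95% intervals are wide, from -2.57 to -0.66 for lefamulin and from -3.41 to -1.29 for retapamulin, whose value was -3.10 without MR replicate 3.

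IL20RB, the beta chain that both IL-20 receptors share, was called in none of the 6 comparisons by edgeR, though M5 against untreated was at the edge. It had 88, 70 and 70 counts in untreated libraries, 122, 85 and 99 with M5, 88, 85 and 71 with lefamulin, and 99, 58 and 72 with retapamulin. M5 libraries lay above untreated ones, at 2.75 ± 0.470 against 1.94 ± 0.271 CPM (log2 fold change 0.50, 95% interval 0.06 to 0.95, edgeR adjusted p = 0.0529, unadjusted p = 0.0294). This difference was called in 6 of 15 alternatives, among them without WT replicate 1 (adjusted p = 0.0373) and without M5 replicate 2 (0.0324). Against M5, the values were -0.27 (-0.71 to 0.18) with lefamulin and -0.28 (-0.73 to 0.17) with retapamulin. Without MR replicate 1, the highest library of its group, the retapamulin difference was -0.53 and called (adjusted p = 0.0453). IL20RB overlaps the antisense gene IL20RB-AS1, which had 9 to 39 counts a library, and as no source used here states whether counting used strand, reads of the pair may be mixed.

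IL10RB, the widely expressed beta chain of the IL-22 and IL-10 receptors, fell with M5 in all libraries. It had 487, 616 and 568 counts in untreated libraries and 352, 337 and 304 with M5, or 14.2 ± 1.77 and 8.94 ± 0.688 CPM, a log2 fold change of -0.67 (SE 0.10; adjusted p = 2.8e-06 by edgeR). Counts were 376, 374 and 387 with lefamulin and 310, 283 and 286 with retapamulin. Lefamulin was slightly above M5 (0.25, SE 0.10, adjusted p = 0.0283). It was no longer called on library totals (adjusted p = 0.0727), on log2 FPKM (0.0637 and 0.0551 with pseudocounts of 1 and 0.1), or without M5 replicate 3 (0.135), ML replicate 2 (0.0509) or ML replicate 3 (0.0843). Retapamulin overlapped M5 (-0.04, 95% interval -0.25 to 0.17, adjusted p = 0.715). IL10RB shares sequence with the read-through gene IFNAR2-IL10RB, so its counts carry that uncertainty.

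**Figure D3:**
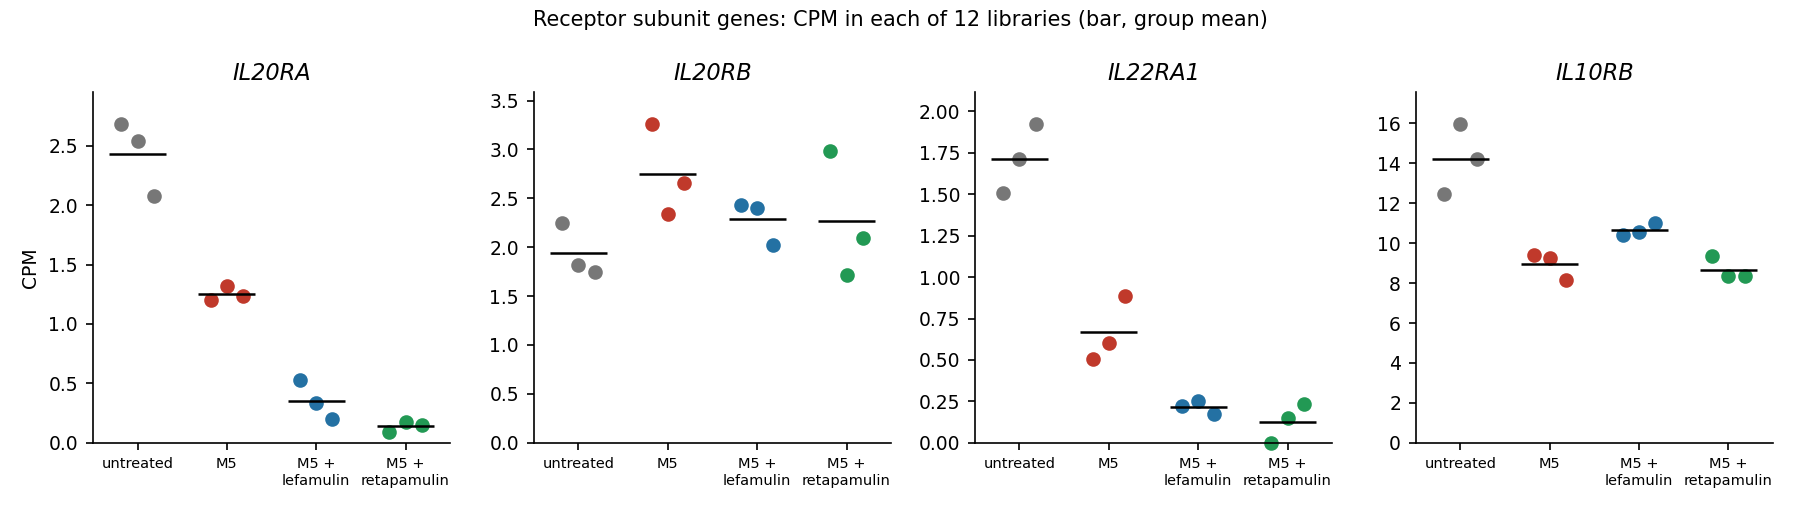
CPM of the 4 receptor subunit genes in each of the 12 libraries, with a separate linear axis from 0 for each gene; points are libraries and bars group means. IL20RA and IL22RA1 step down from untreated to M5 to the compounds, IL20RB overlaps across groups apart from M5 against untreated, and IL10RB is highest in untreated cells.

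Per length, the order of the genes turned over between groups. In untreated cells IL10RB led at 8.03 ± 0.969 FPKM, followed by IL20RA (0.719 ± 0.101), IL22RA1 (0.668 ± 0.0744) and IL20RB (0.644 ± 0.0964), whose libraries overlapped, and the ligands were at or near 0. With M5 the order was IL19 (14.5 ± 0.537 FPKM), IL20 (7.23 ± 0.600), IL24 (6.89 ± 0.132), IL10RB (4.66 ± 0.396), IL20RB (0.841 ± 0.142), IL20RA (0.341 ± 0.0192) and IL22RA1 (0.239 ± 0.0681), and only IL20 and IL24 overlapped among neighbours in that order. With lefamulin IL10RB (5.38 ± 0.144 FPKM) was above IL24 (2.65 ± 0.268) and IL20RB (0.677 ± 0.0699), and the other 4 genes, from IL20 at 0.179 ± 0.0657 to IL22RA1 at 0.0749 ± 0.0148, each overlapped the next. With retapamulin IL24 led at 11.8 ± 0.752 FPKM, above IL10RB (4.11 ± 0.318), IL20RB (0.632 ± 0.189) and IL20 (0.226 ± 0.0387), with IL22RA1, IL20RA and IL19 overlapping at or below 0.0757.

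The balance of the receptor chains moved with these levels. The FPKM of IL20RA was 1.12 ± 0.108 times that of its partner IL20RB in untreated cells, 0.414 ± 0.0871 with M5, 0.135 ± 0.0528 with lefamulin and 0.0602 ± 0.0325 with retapamulin. For IL22RA1 over IL20RB the same ratio was 1.06 ± 0.255, 0.292 ± 0.105, 0.110 ± 0.0129 and 0.0771 ± 0.0684. These are ratios of RNA, not of receptors at the cell surface.

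Lefamulin and retapamulin were compared directly, as 1 pair, with p-values adjusted over all genes tested. IL24 was lower with lefamulin by a log2 fold change of -2.24 (95% interval -2.44 to -2.04, edgeR adjusted p = 1.2e-14), or 4.73-fold, in all libraries. IL10RB was higher with lefamulin by 0.30 (0.09 to 0.51, adjusted p = 0.0217), with no overlap. That call was lost with DESeq2 (adjusted p = 0.0517) and without ML replicate 3 (0.072), MR replicate 2 (0.0765) or MR replicate 3 (0.0764). IL20RA was higher with lefamulin by 1.34 (0.40 to 2.28, adjusted p = 0.0213), which was not called without ML replicate 1 (0.95, adjusted p = 0.153) or MR replicate 1 (1.12, adjusted p = 0.0846), or on log2 FPKM with a pseudocount of 1 (adjusted p = 0.17). IL19 was higher with lefamulin by 1.93 (0.83 to 3.02, adjusted p = 0.0059), from 37 counts against 9, and the libraries overlapped. The IL19 call ended on log2 FPKM with a pseudocount of 1 (adjusted p = 0.0644), and without MR replicate 2 the value was 2.87. For IL20 (-0.42, -1.14 to 0.30), IL20RB (0.01, -0.44 to 0.47) and IL22RA1 (0.74, -0.52 to 1.99) no difference was called (IL22RA1 was at 1.49 without MR replicate 3), and the intervals leave room for differences of those sizes.

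**Figure D4:**
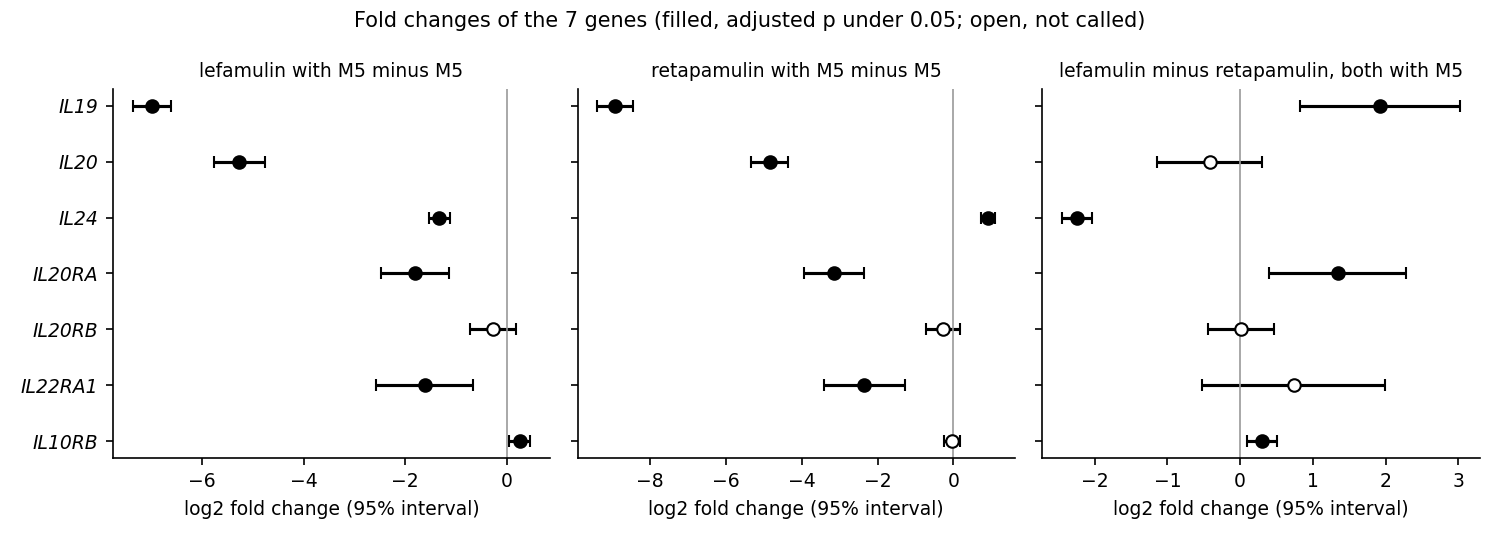
Log2 fold changes with 95% intervals (horizontal axis) of the 7 genes for lefamulin with M5 against M5, retapamulin with M5 against M5, and lefamulin against retapamulin; filled points have an edgeR adjusted p under 0.05. IL24 is at -1.33 and 0.91 in the first 2 panels, which share the M5 libraries, and at -2.24 in the third.

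Compared with untreated cells, the ligands with a compound were not back at 0, apart from IL19 in 1 retapamulin library. Set against the floor of 3 counts over the untreated group, IL19 and IL20 were 13.6-fold and 10.7-fold higher with lefamulin. With retapamulin they were 3.48-fold and 14.3-fold higher. These folds take the few counts with a compound as exact, so they are not lower bounds. The IL19 value with retapamulin rests on 9 counts, its libraries overlapped untreated ones, and its call (edgeR adjusted p = 0.0043) ended on log2 FPKM (adjusted p = 0.463 and 0.138 with pseudocounts of 1 and 0.1); without MR replicate 2 the adjusted p was 0.0386. IL24 was 642-fold above its single untreated count with lefamulin (counting interval 115 to 25401) and 3039-fold with retapamulin (545 to 120061). The alpha chains stood well below untreated cells: IL20RA by -2.76 (SE 0.31) and -4.11 (SE 0.37) and IL22RA1 by -2.97 (SE 0.43) and -3.71 (SE 0.47) on the log2 scale, with lefamulin and retapamulin. Without MR replicate 3, the IL22RA1 value with retapamulin was -4.46. IL10RB was at -0.41 (SE 0.10) and -0.71 (SE 0.10).

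Of 9 related ligands and receptors, 7 were in the table: IL10, IL10RA, IL22RA2 (the soluble decoy receptor of IL-22), IFNL1, IFNL2 and IFNL3 had 0 to 2 counts over any group, and only IFNLR1, the alpha chain of the type III interferon receptor and a partner of IL-10RB, was tested. IFNLR1 rose from 10.4 ± 0.802 to 12.1 ± 0.657 CPM with M5 (edgeR adjusted p = 0.0251), and to 17.02 ± 0.291 with lefamulin and 16.7 ± 0.941 with retapamulin. IL22 and IL26 were not analysed here.

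Of 13 Janus kinases, STATs and their regulators, all tested, edgeR called 9 higher (28.3% of all genes) and 2 lower (26.9%) with M5. The median log2 fold change was 0.42, beside -0.02 over all genes, and 4 were lower on library totals. The 2 that fell were CISH, a STAT5-induced inhibitor of cytokine signalling (-1.19, SE 0.20), and PIAS3, an inhibitor of STAT3 (-0.46, SE 0.05), and TYK2 and STAT5B were not called. Against M5, 2 rose and 8 fell with lefamulin (median -0.21), and 3 rose and 8 fell with retapamulin (median -0.10); on library totals 0 of the 13 rose with retapamulin, and 1 rose without MR replicate 3. The list's called shares, 76.9% and 84.6%, stand beside 67.9% and 72.1% of all genes, and the medians beside -0.00 and -0.05. SOCS1, a feedback inhibitor of Janus kinases, rose with M5 from 0.520 ± 0.129 to 16.4 ± 1.15 CPM and fell to 3.16 ± 0.660 and 4.05 ± 0.431 with lefamulin and retapamulin. SOCS3, the feedback inhibitor that STAT3 induces, rose from 9.77 ± 0.262 to 236 ± 1.60 CPM and was still at 185 ± 6.33 and 221 ± 7.66. JAK2 rose from 7.14 ± 0.740 to 22.1 ± 0.133 CPM and fell to 9.72 ± 0.251 and 8.45 ± 1.23. JAK1, the kinase bound to the alpha chains of these receptors, changed by 0.40 (SE 0.04) with M5.

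Epidermal genes that IL-20 subfamily ligands or IL-22 are known to raise rose with M5 in 12 of 15 cases. Of 16, 15 were tested (MMP3 was not), and 12 rose and 3 fell with M5, beside 28.3% and 26.9% of all genes. The median log2 fold change was 6.02, beside -0.02 over all genes. Against M5, 2 rose and 13 fell with lefamulin (median -2.03), and 2 rose and 12 fell with retapamulin (median -1.44). Of all genes, 33.6% were higher and 34.3% lower with lefamulin (median -0.00), and 34.1% and 38.0% with retapamulin (median -0.05). The genes that rose with the compounds were MMP1, an interstitial collagenase, by 1.89 (SE 0.08) and 2.76 (SE 0.08), and PDGFA, a platelet-derived growth factor chain, by 0.92 (SE 0.07) and 1.40 (SE 0.07). S100A8, a subunit of calprotectin, had 112.9 ± 1.68 CPM with M5 and 1.32 ± 0.420 and 0.936 ± 0.104 with the compounds. The 3 genes that fell with M5 were KRT16 (-2.96, SE 0.14), PDGFA (-0.76, SE 0.07) and KRT17 (-0.62, SE 0.08). Of 6 differentiation genes known to be lowered by the ligands, 3 were tested. FLG, IVL and KRT10 all fell with M5, beside 26.9% of all genes. Against M5, none of these 3 was called with lefamulin, and KRT10 alone rose with retapamulin (0.22, SE 0.05, edgeR adjusted p = 4.3e-04), which was not called on library totals. FLG and IVL were already low with M5, at 0.586 ± 0.0920 and 0.325 ± 0.166 CPM. Their 95% intervals for lefamulin against M5 were wide, from -1.34 to 0.07 and from -1.36 to 0.44. M5 itself usually holds IL-22 and other cytokines, so what the IL-20 subfamily ligands contribute to these lists cannot be told apart here.

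**Figure D5:**
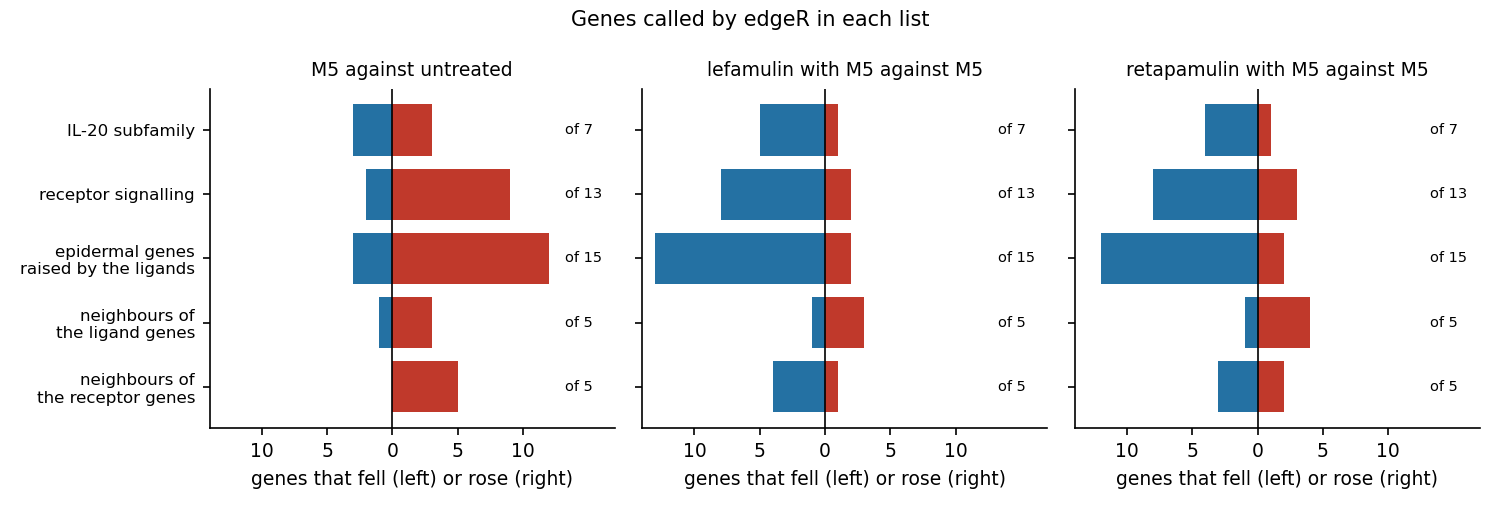
Numbers of genes that fell (left, blue) or rose (right, red) by edgeR in each list, with the number tested, in 3 comparisons. The epidermal list goes from 12 risen and 3 fallen with M5 to 13 and 12 fallen with lefamulin and retapamulin, and the neighbours of the ligand genes mostly rose.

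The genes beside the ligand cluster were mixed. Of 7 neighbours, IL10 and FCAMR were too low to test, and 3 rose and 1 fell with M5, beside 28.3% and 26.9% of all genes. Against M5, 3 rose and 1 fell with lefamulin (beside 33.6% and 34.3%), and 4 rose and 1 fell with retapamulin (beside 34.1% and 38.0%). C1orf116, a gene beyond FCAMR on the IL24 side, was the neighbour that fell with M5, from 76.1 ± 1.22 to 28.8 ± 2.11 CPM. Against M5 it was among those that rose, to 344 ± 3.59 with lefamulin and 453 ± 13.5 with retapamulin. PIGR, the transporter of polymeric immunoglobulin and the next protein-coding gene beyond IL24 and FCMR, changed in the direction of IL19 and IL20 in all 3 comparisons: 0.254 ± 0.0650 CPM in untreated cells, 0.851 ± 0.363 with M5, 0.224 ± 0.127 with lefamulin and 0.0985 ± 0.0680 with retapamulin. Under a filter of 1 CPM it was too low to be tested. FCMR, which overlaps the end of IL24, rose with retapamulin by 1.30 (SE 0.24, edgeR adjusted p = 2.9e-05) and with lefamulin by 0.62 (SE 0.24, adjusted p = 0.0267). FCMR had 38 to 140 counts a library. How reads in the stretch it shares with IL24 were counted is not stated. Within IL19, the overlapping LOC105372878 had 33, 63 and 8 counts in the M5 libraries and 0 to 2 in all others.

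Neighbours of the receptor genes went the other way from 3 of the receptor genes with M5. All 5 tested (IFNLR1, IFNGR1, IFNAR1, IFNAR2 and IFNGR2, of 6) rose with M5, whereas IL20RA, IL22RA1 and IL10RB fell. Of all genes tested, 28.3% rose and 26.9% fell with M5. Against M5, 1 of the 5 neighbours rose and 4 fell with lefamulin, beside 33.6% and 34.3% of all genes. With retapamulin 2 rose and 3 fell, beside 34.1% and 38.0%. IFNGR1, the ligand-binding chain of the interferon gamma receptor, near IL20RA, rose from 73.7 ± 1.98 to 396 ± 5.74 CPM and fell to 146 ± 1.17 and 131 ± 3.39 with lefamulin and retapamulin, the same direction as IL20RA against M5. IFNAR2, which lies directly before IL10RB, rose by 0.59 (SE 0.06) with M5 and fell by 0.57 with each compound.

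By likeness over the 12 libraries (Pearson correlation of log2 CPM, a description of points that share 4 treatments), the genes closest to IL19 were SOX7 (0.994), JAK2 (0.994) and XPR1 (0.993). Such a correlation does not depend on the size of a change. SOX7 was at 48.0 ± 0.858 CPM in untreated cells and 84.4 ± 3.25 with M5, whereas IL19 went from 0 to 44.7 CPM. Closest to IL20 were S100A8, LYRM1 and IGFBP3, each at 0.993. Closest to IL24 were TFPI2 (0.997), DHRS9 (0.996) and MIDN (0.996). TFPI2, a Kunitz-type protease inhibitor, had 103 ± 2.53 CPM in untreated cells, 526 ± 27.8 with M5, 415 ± 5.80 with lefamulin and 592 ± 3.44 with retapamulin, the same order of groups as IL24. Closest to IL20RA were FZD1 (0.990), LFNG (0.990) and ARSI (0.989), to IL22RA1 ECHDC3 (0.983), C22orf39 (0.976) and ERMARD (0.972), and to IL10RB LTBP3 (0.953), TXNRD2 (0.950) and MEGF6 (0.950). For IL20RB no gene came above 0.862 (CYB5R2). Between members, IL19 with IL20 gave 0.941 and IL20RA with IL22RA1 gave 0.936, while IL19 with IL24 gave 0.489.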

How the data were processed

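HISAT2 and HTSeq were used, per the submitters' processing notes; no source used here states their versions, the genome build or the strand setting. The authors deposited whole-number counts per gene symbol, not normalized, and FPKM. Each of 20422 genes checked had a deposited FPKM equal to its count over a fixed length and the column total, within a coefficient of variation of 0.001.

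edgeR 4.0.16 (R 4.3.3) was run on the counts. filterByExpr kept 14207 genes, libraries were TMM-scaled, and edgeR's quasi-likelihood test used all 12 libraries with a mean for each group. Benjamini-Hochberg adjustment covered every tested gene. The code was tested on simulated data. Standard errors came from the fold change and its F statistic. Where a group held 0 counts, folds are against 3 counts over that group, with the other group's counts taken as exact. Where it held 1 to 3, they are ratios with exact 95% counting intervals, which cover counting error only. Same-group libraries were not duplicates.

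Members, lists and tests were chosen with earlier results of these data known; motifs and overlapping genes were chosen after values were seen. Named genes are the 7 members, up to 3 called genes with the largest fold change per list and comparison, and the 3 most alike to each member (prior count 2). Other list genes named (JAK1, KRT17, PDGFA and IFNAR2, for example) were chosen after their values were seen. Alternatives were RLE, library totals, other filters, DESeq2 1.42.0, fits of 2 groups, a replicate block, limma 3.58.1 on log2 FPKM with pseudocounts of 1 and 0.1, and leaving out each library.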

Additional observations from a re-analysis of the deposited data

Results flagged for a closer look

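The effects of lefamulin and retapamulin on top of M5 differed for 4 of the 7 genes by edgeR's direct test of one compound against the other, which is what brings them here. That is 57.1% of the members beside 40.0% of all genes tested, so the count itself singles out nothing. The log2 difference, lefamulin minus retapamulin, was -2.24 for IL24 (adjusted p = 1.2e-14), 1.93 for IL19 (adjusted p = 0.0059), 1.34 for IL20RA (adjusted p = 0.0213) and 0.30 for IL10RB (adjusted p = 0.0217). IL24 was the 1 gene of the 4 that was called against M5 in opposite directions, and no label gives the doses of the compounds. The IL24 call held in all 15 alternatives run, whereas the other 3 calls were each lost in at least 1: IL19 on log2 FPKM with a pseudocount of 1 (adjusted p = 0.0644), IL20RA there (0.17) and without ML replicate 1 (0.153) or MR replicate 1 (0.0846), and IL10RB with DESeq2 (0.0517) and without ML replicate 3, MR replicate 2 or MR replicate 3 (0.072 to 0.0765).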

How the results depend on the processing

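The number of the 7 genes called stayed within 1.5 times its value under every alternative run, except for lefamulin against retapamulin. Its lowest value against untreated cells was 4 for each compound, beside 6 called with all groups fitted. That was in fits of 2 groups, where IL19 and IL20 were too low to be tested. In lefamulin against retapamulin, 4 were called, but 2 in a fit of the 2 groups only, where IL19, IL20RA and IL22RA1 were too low to be tested, and 2 on log2 FPKM with a pseudocount of 1. Leaving out each library in turn gave 6 to 7 called for M5 against untreated, 5 to 6 for lefamulin and for retapamulin against M5, 3 to 4 for lefamulin against retapamulin, and 6 in each comparison of a compound with untreated cells. Whether replicate numbers pair the libraries is not known. The 18 correlations of same-numbered deviations ran from -0.144 to 0.184, with 3 above 0.1, which cannot exclude weak pairing. Of 623 recomputed values of single genes, 600 stayed on their side of the threshold, 16 lost a call, 7 gained one and 0 reversed; these lay in 7 of 42 gene comparisons. With the replicate block, IL20RB in M5 against untreated was called (0.50, adjusted p = 0.039), and the members called were 7, 6, 5, 4, 6 and 6 in the 6 comparisons in the order M5 against untreated, lefamulin and retapamulin against M5, lefamulin against retapamulin, and both against untreated. On library totals the median of all genes shifted from -0.02 to -0.14 in M5 against untreated, from -0.05 to -0.19 in retapamulin against M5, and from -0.02 to -0.18 and -0.06 to -0.31 in lefamulin and retapamulin against untreated. For the gene lists and the IL24 share the alternatives were added after seeing the data, and 568 of 600 list counts stayed within 1.5 times. The IL24 share was recomputed only by leaving out each library. Its mean ran from 23.8% to 24.4% with M5, 89.9% to 90.5% with lefamulin and 97.8% to 97.9% with retapamulin. Depth limits IL19, IL20, IL20RA and IL22RA1 with a compound, at 16 counts a library or fewer for IL19 and IL20.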
